A study of Mus musculus with 8 samples.

Results

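The genes described here are the core of the microRNA machinery: Drosha, Dgcr8, Xpo5, Dicer1, Tarbp2, Ago1, Ago2, Ago3, Tnrc6a and Tnrc6b. They were chosen by gene symbol, by a rule that uses no measured value but was written with earlier results of these data known, and all 10 have a row in the deposited table of 15867 genes. RNA came from primary macrophages of obese mouse adipose tissue, collected by positive selection for F4/80 after 20 weeks of high-fat diet. All 8 libraries came from mice homozygous for loxP-flanked Mirc11 and Mirc22, the loci of the microRNA clusters named in the series title. The 4 control libraries had the genotype Mirc11 fl/fl Mirc22 fl/fl Lyz2+/+, without Cre. The 4 knockout libraries were Mirc11 fl/fl Mirc22 fl/fl Lyz2Cre/Cre, in which Cre recombinase sits in the Lyz2 gene and acts in myeloid cells. Cluster loss, Cre and loss of lysozyme M therefore cannot be told apart in this design. The series' design calls the 4 replicates of a genotype biological, without saying whether each is 1 animal, and every p-value given rests on the spread among these libraries. The question put to these genes is whether the machinery that makes and uses microRNAs differed after loss of the clusters.

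MicroRNAs are cut from long nuclear transcripts by the microprocessor, in which the RNase III enzyme Drosha works with the RNA-binding protein Dgcr8. Exportin-5 (Xpo5) carries the hairpin to the cytoplasm, where Dicer1, with its partner Tarbp2, trims it to a duplex. One strand is loaded into an Argonaute protein, which finds target messages by seed pairing, and Argonaute recruits Tnrc6 (GW182) proteins that bring in the deadenylases and decapping enzymes. Macrophages use this route to restrain inflammatory and proliferative messages.

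The mature microRNAs of the deleted loci show what was removed and which bases would pair with the machinery's own messages. The listed sequences are from RefSeq (GRCm38.p6), 5′ to 3′, with the seed (bases 2 to 8) in capitals. The miR-27 forms from chromosomes 8 and 13 share a seed, and miR-24-3p is encoded on both chromosomes. The miR-23 family also includes mmu-miR-23b-3p.
mmu-miR-23a-3p: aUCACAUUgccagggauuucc
mmu-miR-27a-3p: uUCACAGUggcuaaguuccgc
mmu-miR-27b-3p: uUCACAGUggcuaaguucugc
mmu-miR-24-3p: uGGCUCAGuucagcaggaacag

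The longest annotated 3′ untranslated region (UTR) of each gene was searched on the sense strand, the strand of the message, for the complement of each seed. The 7-base matches are AATGTGA for miR-23, ACTGTGA for miR-27 and CTGAGCC for miR-24, and an 8-base match adds an A at the 3′ end (AATGTGAA, ACTGTGAA, CTGAGCCA), so that every 8-base match is also a 7-base match. Of the 10 machinery genes, 8 held at least 1 match, with 22 matches in all, of which 7 had 8 bases. At least 1 match was held by 41.1% of the 14775 UTRs searched. Xpo5 and Tarbp2 held none of these letters. An 8-base match occurred in 5 of the 10, namely Dicer1, Ago1, Ago3, Tnrc6a and Tnrc6b, against 19.7% of the 14775 UTRs searched. The UTR was longer than the median of 1182 bases over all genes in 8 of the 10, with a range from 169 bases in Drosha to 12742 in Ago3, and long UTRs hold more matches. Among UTRs within 1.5-fold of its own length, an 8-base match to any of the 3 families was held by 40.3% for Dicer1, 44.0% for Ago1, 73.5% for Ago3, 28.7% for Tnrc6a and 66.4% for Tnrc6b. Ago2, with 11064 bases, held 5 matches of 7 bases and none of 8, where 69.3% of UTRs of like length held one of 8. A match is a description of the letters and not evidence of binding.

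The 8-base matches follow, with the match in capitals and the bases 5′ of it in lower case, as read in the message from the GENCODE M21 transcripts. They are shown because they are the longest matches that the deleted families have in these genes, and they lie in genes with lower knockout means and, for Tnrc6a, a higher one.
Dicer1, miR-24, chr12:104690225-104690254, minus strand: ttacgcttgaagtctcagcaggCTGAGCCA
Ago1, miR-24, chr4:126435594-126435623, minus strand: cttactaggacttgccttctccCTGAGCCA
Ago3, miR-24, chr4:126343496-126343525, minus strand: ttactacatttcaatataaaatCTGAGCCA
Tnrc6a, miR-23, chr7:123193106-123193135, plus strand: gaatcatgcaggccaatattatAATGTGAA
Tnrc6b, miR-23, chr15:80929724-80929753, plus strand: atgaacgccaacctagaaagacAATGTGAA
Tnrc6b, miR-24, chr15:80934806-80934835, plus strand: tggccgtgagcactctctgtgcCTGAGCCA
Tnrc6b, miR-23, chr15:80937523-80937552, plus strand: ccttgggatgtattattatgcaAATGTGAA
The microprocessor genes held only matches of 7 bases. Of the 15 matches of 7 bases only in the machinery genes, just theirs are listed, a choice made after their values were seen. Among UTRs of like length to that of Drosha, 7-base matches of miR-23, miR-27 and miR-24 were held by 2.7%, 3.03% and 3.11%. For Dgcr8 these shares were 17.7%, 19.9% and 22.1%. A match to any of the 3 families is at least as common as the highest of these shares. Whether any match shown bears on a difference was not tested.
Drosha, miR-27, chr15:12935137-12935166, plus strand: ggcggagcattgcctttctaagaACTGTGA
Dgcr8, miR-23, chr16:18255327-18255356, minus strand: gcagttctggacaagctgctctcAATGTGA

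**Figure D1:**
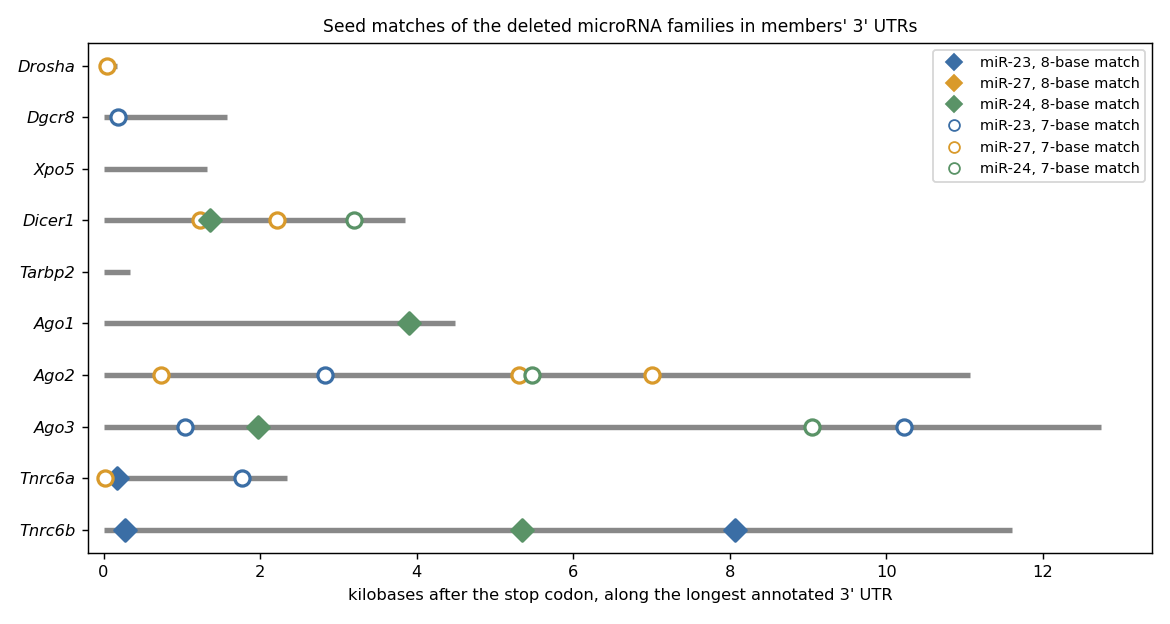
Positions of seed matches of the 3 deleted microRNA families (colours) along the longest annotated 3′ UTR of each of the 10 machinery genes, in kilobases after the stop codon; grey lines show the UTR, diamonds 8-base and open circles 7-base matches. Matches of 8 bases lie in Dicer1, Ago1, Ago3, Tnrc6a and Tnrc6b. Drosha, Dgcr8 and Ago2 hold matches of 7 bases only, and Xpo5 and Tarbp2 hold no match of either length.

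Recovered library totals ran from 31789395 to 46621080 reads, and a machinery gene had between 1007 and 5046 reads in a library, which limits counting error to at most 3.15% of a value. Lyz2, the site of the Cre insertion, checks the labels: controls had 156727 to 204853 normalized counts of it, and knockouts 174 to 273. The macrophage identity of the samples was checked with 10 marker genes, all measured and none at 0. Controls ranged from 309218 to 440481 in their summed level and knockouts from 274466 to 294042. By limma, 3 of the 10 passed as lower in knockout and 0 as higher, against 2.38% and 1.24% of all genes. The 3 were Cd68 (log2 difference -0.41, limma adjusted p = 0.0190), Csf1r (-0.45, limma adjusted p = 0.0389) and Itgam (-0.47, limma adjusted p = 0.0103). No machinery gene differed by more than 0.23 in size. Adgre1, which encodes F4/80, did not pass, and its groups overlapped (-0.21, limma adjusted p = 0.346). Its control values ran from 39565 to 54126 and its knockout values from 37440 to 43035. Transcripts of other adipose cells were present as well, all of them above 0. The 8 endothelial markers summed to 60332 to 104799 in control and 96228 to 138559 in knockout, the 7 fibroblast markers to 96477 to 159854 and 132184 to 201421, and the 6 adipocyte markers to 3480 to 4544 and 4548 to 5764. None of these 21 markers passed the test singly. The 6 T and NK cell markers summed to at most 488, the 4 B cell markers to at most 1820 and the 2 of 5 neutrophil markers with a row to at most 44.7 in any library. Macrophage sums were thus lower and adipocyte sums higher in every knockout library than in every control library. All machinery genes are expressed in many cell types, and the part of these shifts in the differences given here was not tested. In bulk RNA, fewer cells of a type and less RNA per cell cannot be told apart.

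Values are normalized gene counts as deposited. A difference is the knockout mean less the control mean on the scale log2(normalized count + 1), fitted with limma over all 15862 genes with a mean of at least 10, with Benjamini-Hochberg adjustment over those genes. All 10 machinery genes passed that filter, with means of 1213 to 4376. Of the 10, 1 passed the threshold of 0.05, Ago1, which fell. Over all genes 3.61% passed, 2.38% lower and 1.24% higher in knockout, and over the 4327 genes with a mean in the range of the 10 it was 4.55%. The remaining 9 did not pass, and 0 rose. edgeR on recovered reads also called Ago1 alone among the 10, against 3.51% of all genes (2.31% lower, 1.20% higher). DESeq2 on those reads called 3, all lower (Ago1, Dgcr8 and Ago3), against 10.9% of the 14305 genes with a DESeq2 adjusted p (6.23% lower, 4.66% higher). Control and knockout libraries did not overlap for 6 of the 10, lower in knockout for Dgcr8, Dicer1, Ago1 and Ago3 and higher for Drosha and Tnrc6a. Over all genes the groups did not overlap for 13.7% (8.21% lower, 5.52% higher), and over the 4327 genes with a mean in the same range for 16.8%. An unadjusted limma p under 0.05 was found for 7 of the 10, against 21.2% of all genes; by edgeR such a p was found for 20.7% of all genes, and by DESeq2 for 21.8% of the 15829 genes to which it gave a p. The largest difference was 0.23 on the log2 scale in size. Regardless of sign, the median difference was 0.14 over the 10 and 0.14 over all genes. Over the 4327 genes with a mean in the range of the 10 it was 0.09. With sign, the median over the 10 was -0.13, against 0.00 over all genes. With libraries scaled to the same total the medians with sign were -0.07 and 0.06. Replicates of these genes were close, with a coefficient of variation of 1.53% to 8.47% within a group.

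**Figure D2:**
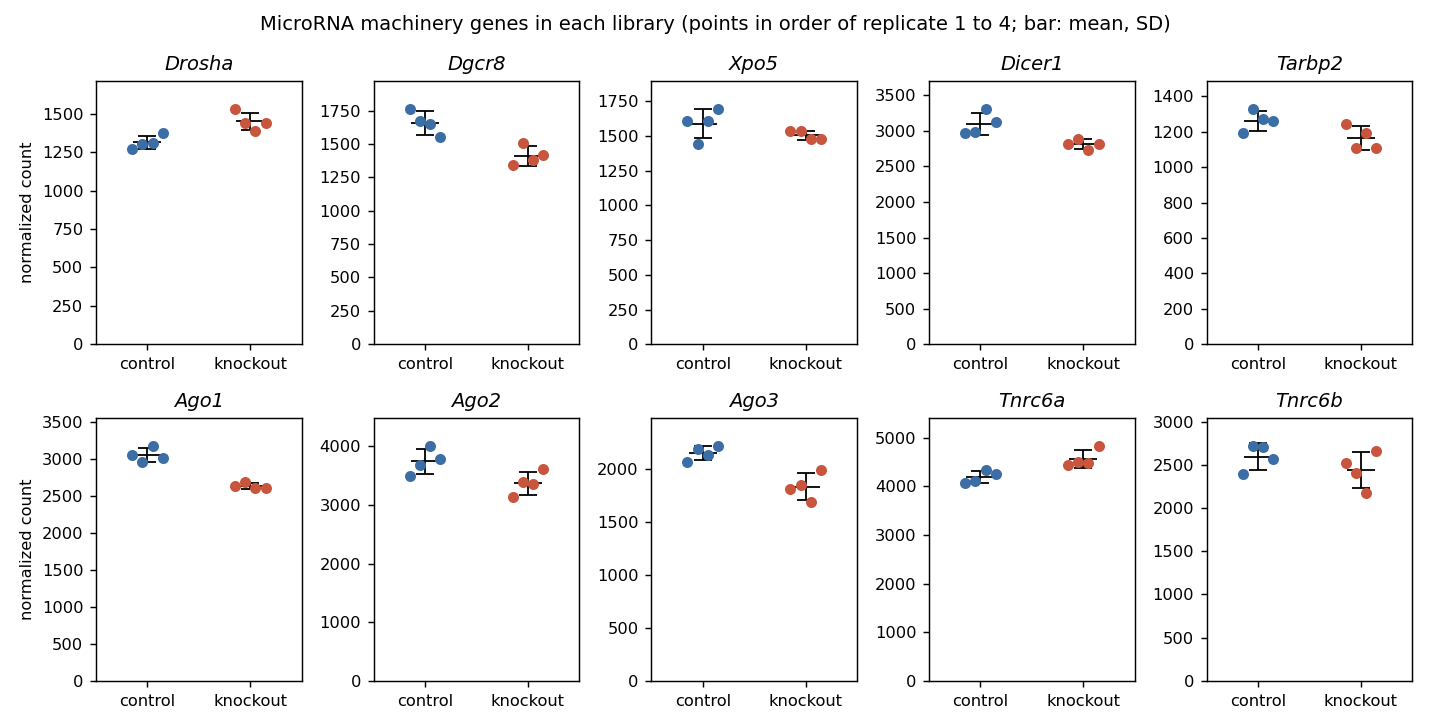
Normalized counts of each machinery gene (vertical axes from 0) in the 4 control and 4 knockout libraries, with points in order of replicate 1 to 4 and bars for mean and SD. Ago1 was at 2952 or more in every control and at 2690 or less in every knockout library, while the groups overlapped for Xpo5, Tarbp2, Ago2 and Tnrc6b.

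The means of the 2 microprocessor subunits differed in opposite directions, and neither passed the test. Drosha, on chromosome 15 (12824815 to 12935291 in mm10), encodes the nuclease. Control libraries 1 to 4 had 1273, 1301, 1307 and 1375 normalized counts, and knockout libraries 1 to 4 had 1529, 1442, 1389 and 1438; values of each gene are given in this order. The lowest knockout value lay just above the highest control value. The means were 1314 ± 43.1 and 1449 ± 58.3 (SD, n = 4 each), a log2 difference of 0.14 (SE 0.05, 95% interval 0.02 to 0.26, limma adjusted p = 0.167). Dgcr8, on chromosome 16 (18253948 to 18289246), encodes the hairpin-binding subunit. It measured 1761, 1672, 1648 and 1550 in the control and 1341, 1507, 1377 and 1418 in the knockout libraries. All 4 knockout values lay below all control values, with means of 1411 ± 71.2 against 1658 ± 86.5 (log2 difference -0.23, SE 0.06, 95% interval -0.37 to -0.10, limma adjusted p = 0.0689).

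The libraries themselves mirrored this pattern within the control group, where the order of Drosha values was the exact reverse of the order of Dgcr8 values. Among the knockout libraries the order was not reversed. Replicate 1 had the highest Drosha and the lowest Dgcr8 value, but replicate 3 had the lowest Drosha value (1389) with a Dgcr8 value of 1377. Replicate 2 had the highest Dgcr8 value (1507), with Drosha (1442) above that of replicates 3 and 4. The ratio of Drosha to Dgcr8 normalized counts, which does not depend on how libraries are scaled, was 0.723, 0.778, 0.793 and 0.887 in the controls and 1.14, 0.957, 1.01 and 1.01 in the knockouts. The groups did not overlap in it, with means of 0.795 ± 0.0682 and 1.03 ± 0.0779 (n = 4 each). The ratio was chosen after the values were seen and is given without a test. As background, the microprocessor is known to cut hairpins within the Dgcr8 message itself, and Dgcr8 protein is known to stabilise Drosha protein. RefSeq places the microRNA hairpin Mir1306 in a coding exon of Dgcr8, on chromosome 16 from 18284239 to 18284317. Exons of Dgcr8 also overlap those of Trmt2a on the opposite strand, and no source used here says whether reads were counted by strand, so reads of the shared stretch cannot be assigned to a strand.

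**Figure D3:**
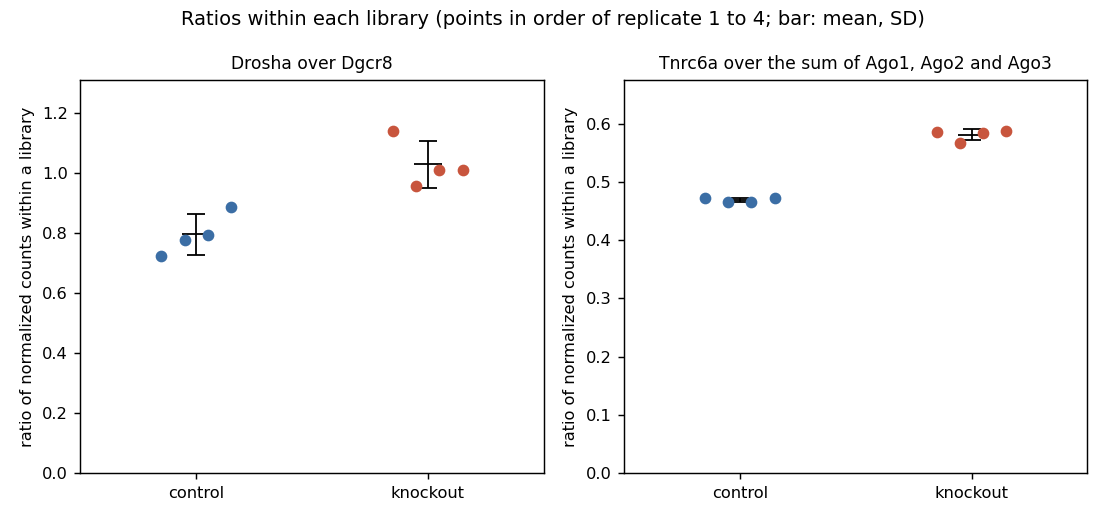
Ratios of normalized counts within each library (vertical axes from 0) for Drosha over Dgcr8, left, and Tnrc6a over the sum of Ago1, Ago2 and Ago3, right, with points in order of replicate 1 to 4 and bars for mean and SD. The left ratio is at most 0.887 in controls and at least 0.957 in knockouts, the right at most 0.473 and at least 0.567.

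Xpo5, the export receptor of the precursor hairpin, did not pass the test. Its locus is on chromosome 17 (46202782 to 46243598). Values were 1606, 1443, 1611 and 1694 in control and 1534, 1537, 1477 and 1481 in knockout libraries. The knockout libraries lay within the control range, with means of 1589 ± 105 and 1508 ± 32.8 (log2 difference -0.07, SE 0.06, 95% interval -0.21 to 0.06, limma adjusted p = 0.516). The difference was -0.12 without control replicate 2, -0.04 without control replicate 4 and -0.01 with libraries scaled to the same total.

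Dicer1, the cytoplasmic nuclease, was lower in every knockout library but did not pass the test. The gene spans chromosome 12 from 104687742 to 104751952. It measured 2971, 2980, 3305 and 3132 in control and 2822, 2890, 2733 and 2819 in knockout libraries. The closest values of the groups were 2971 and 2890, and the means were 3097 ± 157 and 2816 ± 64.6 (log2 difference -0.14, SE 0.05, 95% interval -0.25 to -0.02, limma adjusted p = 0.169). Tarbp2, its double-stranded RNA-binding partner on chromosome 15 (102518192 to 102523676), gave 1192, 1328, 1270 and 1259 in control and 1246, 1107, 1194 and 1110 in knockout libraries. The groups overlapped, and the difference was -0.12 (SE 0.06, 95% interval -0.26 to 0.02, limma adjusted p = 0.307).

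All 3 Argonaute genes had lower means in the knockout group, and Ago1 passed the test. Ago1 lies on chromosome 4 (126435012 to 126468583) next to Ago3 (126331704 to 126429556). Ago1 measured 3045, 2952, 3174 and 3014 in control and 2634, 2690, 2604 and 2605 in knockout libraries. The knockout values were tightly grouped below all controls. The mean fell from 3046 ± 93.5 to 2633 ± 40.4, a change of -13.5% (log2 difference -0.21, SE 0.04, 95% interval -0.31 to -0.11, limma adjusted p = 0.0351). Leaving out a library in turn ended the call in 7 of 8 fits, all but the one without control replicate 2 (differences of -0.22 to -0.19, limma adjusted p of 0.0494 to 0.0982). It was also lost when libraries were scaled to the same total (-0.15, limma adjusted p = 0.143) and with quantile normalization (-0.17, limma adjusted p = 0.0958).

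Ago3 measured 2064, 2188, 2134 and 2216 in control and 1806, 1848, 1687 and 1990 in knockout libraries. Its groups did not overlap either, knockout replicate 4 being closest to the controls, and the means were 2151 ± 66.9 and 1833 ± 125 (log2 difference -0.23, SE 0.06, 95% interval -0.37 to -0.10, limma adjusted p = 0.0689). Ago2, the Argonaute that can itself cut a fully paired target, lies on chromosome 15 (73095844 to 73184935). It measured 3496, 3685, 4007 and 3789 in control and 3134, 3384, 3355 and 3613 in knockout libraries. Knockout replicate 4 lay above control replicate 1, so the groups overlapped, and the log2 difference was -0.15 (SE 0.06, 95% interval -0.29 to -0.01, limma adjusted p = 0.198). Exons of Ago2 overlap those of Chrac1 on the opposite strand. The summed normalized counts of Ago1, Ago2 and Ago3 spanned 8606 to 9314 across controls and 7574 to 8207 across knockouts.

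The Argonaute paralogs share little sequence of read length: of the 31-base words of Ago1, 1.72% also occur in Ago3, the highest such share among the Argonaute genes. Per kilobase of the longest coding transcript, Ago1 held 50.8% ± 1.01 of the summed Argonaute level in control and 50.2% ± 1.46 in knockout libraries (n = 4 each). Ago2 held 32.6% ± 0.885 and 33.6% ± 1.21, and Ago3 16.6% ± 0.632 and 16.2% ± 0.750. The groups overlapped in each of these shares.

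Of the 2 GW182 genes, Tnrc6a had a higher and Tnrc6b a lower mean in the knockout group, and neither passed the test. Tnrc6a, on chromosome 7 (123123885 to 123195296), encodes a scaffold that links Argonaute to the deadenylases. It measured 4073, 4115, 4338 and 4260 in control and 4434, 4492, 4470 and 4829 in knockout libraries. Every knockout value was above every control value, and knockout replicate 4 stood above the other 3. The means were 4196 ± 123 and 4556 ± 183 (log2 difference 0.12, SE 0.05, 95% interval 0.01 to 0.23, limma adjusted p = 0.198), so the difference did not pass. Tnrc6b, its paralog on chromosome 15 (80711313 to 80941085), gave 2389, 2718, 2706 and 2565 in control and 2524, 2401, 2174 and 2661 in knockout libraries. These groups overlapped (log2 difference -0.09, SE 0.07, 95% interval -0.26 to 0.07, limma adjusted p = 0.520). The difference was -0.04 without knockout replicate 3 and -0.03 with libraries scaled to the same total.

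Within a library, the normalized count of Tnrc6a relative to the sum of Ago1, Ago2 and Ago3 varied very little among replicates. It was 0.473, 0.466, 0.466 and 0.472 in the controls and 0.586, 0.567, 0.585 and 0.588 in the knockouts. The means were 0.469 ± 0.00377 and 0.582 ± 0.00975, and the groups did not overlap. As with the microprocessor ratio, this ratio was chosen after the values were seen and carries no test. It leaves out Tnrc6b. The summed normalized counts of Tnrc6a and Tnrc6b overlapped between the groups, at 6462 to 7044 in controls and 6644 to 7489 in knockouts.

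**Figure D4:**
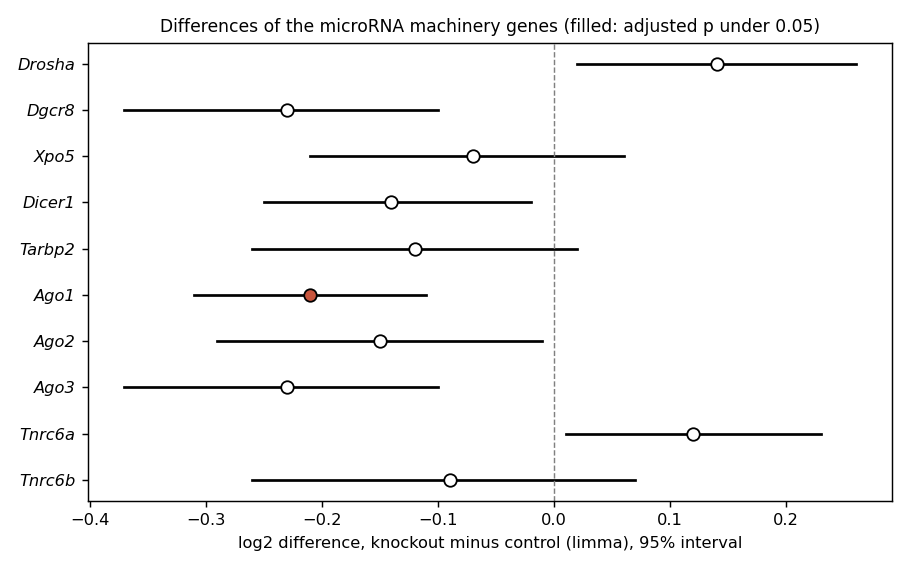
Log2 difference, knockout minus control, of each machinery gene from limma (circles) with its 95% interval (lines); the filled circle marks an adjusted p under 0.05. Ago1 (-0.21) is the filled one, and Drosha (0.14) and Tnrc6a (0.12) lie to the right of 0.

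In the authors' deposited table, made with DESeq2, 3 of the 10 had an adjusted p under 0.05, all lower in knockout, where 10.9% of the genes with an adjusted p were called. The authors' deposited table gives -0.21 for Ago1 (adjusted p = 0.000208), -0.23 for Dgcr8 and -0.23 for Ago3 (adjusted p = 0.0121 each), with signs turned here to knockout over control. Drosha (0.14, adjusted p = 0.114), Dicer1 (-0.14, adjusted p = 0.0980) and Tnrc6a (0.12, adjusted p = 0.119) were not called in the authors' deposited table.

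Levels can be set side by side between genes only per length. Per kilobase of the longest coding transcript, the control means were highest for Tarbp2 (829 ± 36.8 normalized counts per kilobase, n = 4), followed by Tnrc6a (513 ± 15.1), Ago1 (421 ± 12.9) and Dgcr8 (384 ± 20.0). The highest Dgcr8 value met the lowest Ago1 value at 408. Dicer1 (314 ± 16.0), Xpo5 (313 ± 20.6), Drosha (288 ± 9.44) and Ago2 (271 ± 15.4) came next, and each of these overlapped its neighbour in the order. Tnrc6b (150 ± 8.88) and Ago3 (138 ± 4.29) were lowest and overlapped too. The median over 14901 genes, in the same unit over all 8 libraries, was 255. In the knockout libraries the order was the same except among 3 neighbours, where Drosha (317 per kilobase) came first, then Xpo5 (297) and then Dicer1 (286). With the union of all annotated exons as the length, Ago1 led in control with 375 per kilobase, followed by Tnrc6a (330), Tarbp2 (277) and Ago2 (267), while Dgcr8 (215) and Dicer1 (185) came seventh and eighth, so the order depends on the length used.

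Other genes of the pathway were counted in 4 lists by role, of which 78 of 80 genes were measured; Lin28a and Lin28b have no row. In all, 1 of the 78 passed in limma (1.28%, against 3.61% of all genes), and the groups did not overlap for 6 (7.69%, against 13.7%). The median difference over the 78 was -0.03.

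Of 14 partners of the microprocessor and of primary transcripts, 0 passed in limma, edgeR or DESeq2 and 0 had an unadjusted limma p under 0.05. Over all genes, 3.61% passed in limma, 3.51% in edgeR and 10.9% of those with an adjusted p in DESeq2. Lists of 14 and 10 genes are too small for 0 calls to place them below these shares. An unadjusted limma p under 0.05 was found for 21.2% of all genes. The helicase Ddx5, the most abundant, measured 40663 ± 3082 in control and 39481 ± 1536 in knockout libraries (log2 difference -0.04, limma adjusted p = 0.799, with the sign turned under 2 other scalings). Erh, a small partner of Dgcr8, differed by 0.11 (limma adjusted p = 0.490), and Mettl14, of the m6A writer complex, by -0.09 (limma adjusted p = 0.476). Of 10 measured genes of export, dicing and tailing, 0 passed in limma, edgeR or DESeq2 and 1 had an unadjusted limma p under 0.05. This was the poly(A) polymerase Tent2, at 1889 ± 212 and 1644 ± 88.1 (-0.20, limma adjusted p = 0.222). Prkra, the second Dicer partner, measured 882 ± 64.5 and 812 ± 27.1 (-0.12, limma adjusted p = 0.349). It was the 1 gene of the 10 whose groups did not overlap, against 13.7% of all genes. The uridylyl transferase Tut7, the most abundant, measured 6833 ± 448 and 7013 ± 443 (0.04, limma adjusted p = 0.791).

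Of 24 Argonaute partners, loading factors and turnover genes, 0 passed in limma or edgeR and 2 in DESeq2, both lower. Of genes with a DESeq2 adjusted p, 10.9% were called, 6.23% of them all being lower. An unadjusted limma p under 0.05 was found for 3 (21.2% of all genes), 2 lower and 1 higher. The higher one was Hsp90aa1, named after its values were seen, whose groups overlapped (0.29, limma adjusted p = 0.219). The 2 called by DESeq2 were Limd1 and Ago4. Ago4, the fourth Argonaute, lies beside Ago1 on chromosome 4 (126489541 to 126533472). It measured 1140 ± 74.5 in control and 984 ± 18.4 in knockout libraries, which did not overlap (-0.21, SE 0.06, limma adjusted p = 0.0939). Limd1, a LIM protein that bridges Argonaute to the silencing complex, measured 4673 ± 221 and 4108 ± 52.7, also without overlap (-0.18, SE 0.05, limma adjusted p = 0.0711). The chaperone Hspa8, which helps load Argonaute, was the most abundant at 59927 ± 11805 and 57446 ± 1555 (-0.04, limma adjusted p = 0.886, with the sign turned under 2 other scalings).

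Of 30 deadenylation and decapping genes, 1 rose in limma and in edgeR, and DESeq2 added 1 that was lower. In either direction, 3.61% of all genes passed in limma, 3.51% in edgeR and 10.9% of genes with an adjusted p in DESeq2. The shares higher in knockout were 1.24% in limma, 1.20% in edgeR and 4.66% in DESeq2. Counts of 1 or 2 genes in 30 are too small to place the list above or below these shares. The one that rose was Dcp2, the catalytic decapping enzyme, which went from 1752 ± 88.0 to 2139 ± 94.9 without overlap (0.29, SE 0.06, limma adjusted p = 0.0285). When each library was dropped in turn, the call held only without control replicate 1 (differences of 0.26 to 0.31, limma adjusted p of 0.0354 to 0.0837). Patl1, a decapping activator, measured 1890 ± 38.3 and 1690 ± 36.9 (-0.16, SE 0.04, limma adjusted p = 0.0811). The poly(A)-binding protein gene Pabpc1, the most abundant, measured 25006 ± 1057 and 24075 ± 1265 (-0.06, limma adjusted p = 0.659).

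**Figure D5:**
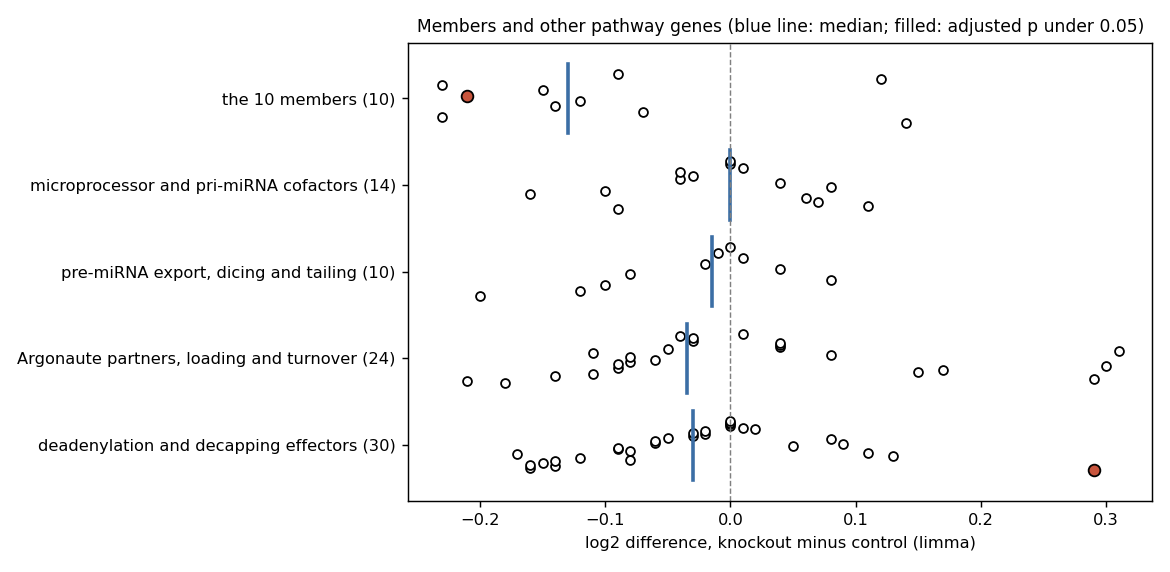
Log2 differences, knockout minus control, of the 10 machinery genes and of the measured genes in the 4 other lists (1 circle a gene), with the median of each list as a blue line and filled circles for an adjusted p under 0.05. The median is -0.13 for the 10 and between -0.04 and 0.00 for the other lists; Ago1 and Dcp2 are the filled circles.

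The genes whose values followed the 2 members with the smallest p most closely across the 8 libraries are given as a description, since any gene that differs between the groups correlates with any other. For Ago1 they were Dcakd (Pearson r = 0.984), Nav1 (0.973) and Atp9b (0.972), all lower in every knockout than in every control library. For Ago3 they were Dnaaf5 (0.973), Sh2d1b2 (0.966) and Nhlrc2 (0.957), which had lower values in the knockout group too.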

How the data were processed

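The authors deposited normalized gene counts, a signal that is never negative, with a column per library, and a DESeq2 comparison with mean signal, log2 fold change (control over knockout), standard error and statistic (score columns) and p-values. Tools listed, without versions, in the submitters' processing notes are Salmon, cutadapt, FastQC and DESeq2, and the build is mm10. Deposited values were whole reads divided by 1 factor per library, for 100% of values within 0.01 reads; in control replicate 4 the factor lies near 1. These reads were used for edgeR (version 4.0.16, TMM) and DESeq2 (version 1.42.0), as alternatives. Differences were tested with limma (version 3.58.1, under R 4.3.3) with a mean-variance trend, two-sided, on log2(value + 1), without covariates. Alternatives were pseudocounts of 0.5 and 5, no filter or a mean of at least 50, 2 other scalings, a replicate block and leaving out each library. Transcripts, lengths and positions came from GENCODE M21 (mm10); 14901 genes matched by symbol. Libraries of a group differed by more than sampling noise (chi-square of at least 8.86 per gene). Named are the 10 genes, Lyz2, markers, for each list the 2 smallest p and the most abundant gene, and the 3 closest correlates of the 2 members with the smallest p, leaving out unnamed predicted and Rik genes. The members and lists were chosen with earlier results of these data known. Scripts were tested on simulated data.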

Additional observations from a re-analysis of the deposited data

Results flagged for a closer look

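Tnrc6a measured 4829 normalized counts in knockout replicate 4, farther from the other 3 knockout libraries (4434 to 4492) than Dixon's 95% critical ratio for 4 samples allows. This was the 1 such case among 20 groups of 4 values (10 genes in 2 groups), and chance gives about 1 in 20.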

How the results depend on the processing

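All 10 machinery genes kept the sign of their difference under all 9 alternatives and in all 8 fits that left out 1 library. Without each library in turn, the genes past the threshold were 163 to 502 over all genes (573 with all libraries), 0 to 1 among the 10, 0 to 1 among the Argonaute partners (1, Hsp90aa1, named after its values were seen, without control replicate 1) and 0 to 1 among the deadenylation and decapping genes. The log2 difference of Ago1 was -0.22 to -0.19 in these fits, that of Ddx5 -0.06 to 0.01 and that of Hspa8 -0.12 to 0.08. DESeq2 on recovered reads called 1557 genes, among them 3 of the 10 (Ago1, Dgcr8 at -0.23 and Ago3 at -0.23), 2 Argonaute partners and 2 deadenylation and decapping genes. Scaling to the same total gave 50.1% of calls as higher (34.2% as deposited; median of all genes 0.06) and called 0 of the 10, with Ago1 at -0.15, Ago2 at -0.09, Dicer1 at -0.08, Tarbp2 at -0.06, Xpo5 at -0.01, Tnrc6b at -0.03, Drosha at 0.20 and Tnrc6a at 0.18 (median of the 10 -0.07); quantile normalization called 0, with Ago1 at -0.17. These 2 scalings turned the signs of Ddx5 (0.02 and 0.08), Hspa8 (0.02 and 0.11) and Pabpc1 (0.00 and 0.01), none of them called. Deviations from the group mean in same-numbered control and knockout libraries correlated at -0.293 to -0.036. With 4 libraries in a group, these correlations do not settle whether the replicate numbers pair the samples. With the replicate block 7 genes passed over all genes, 0 of the 10 (Ago1 at -0.21, adjusted p = 0.256) and 0 deadenylation and decapping genes. The cause of these moves was not tested. With exon unions as the length, 9 of 10 levels per kilobase moved by more than 1 SD.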
